A study of Mus musculus with 13 samples.

Results

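The endothelin system was examined in mouse embryonic fibroblasts (MEFs) as 5 genes: the receptors Ednrb and Ednra, the ligand gene Edn1, and the endothelin converting enzymes Ece1 and Ece2. They were taken by symbol from the 57010 genes listed, and all 5 were among the 15034 genes with enough counts to be tested. The genes were chosen on the counts of these same samples, so their values and fitted differences are given as a description and without p-values. Wild-type (WT) MEFs from mice 4, 5 and 6 were compared in 4 groups, with 1 sample of each mouse per group. Control MEFs were not made senescent and were untreated. Senescent MEFs had received etoposide, a topoisomerase inhibitor that breaks DNA, at 2 μM for 24 h, and were cultured for 5 days. The remaining groups were senescent MEFs treated for 12 h with Fucoidan-FV, sulfated fucose chains from the seaweed Fucus vesiculosus, either at 100 μg/mL or at the higher dose of 300 μg/mL. The cells are mixed fibroblast cultures grown from embryos, and the values are bulk RNA-Seq counts, in which fewer cells of a type and less RNA per cell cannot be told apart.

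Endothelins are short peptides that are cut out of a precursor. Furin-type proteases release an inactive intermediate, the membrane metalloproteases ECE1 and ECE2 turn it into the active peptide, and neprilysin, the product of Mme, degrades it. EDNRA and EDNRB are G protein-coupled receptors that signal mainly through Gq to phospholipase C and calcium. EDNRA is known for contraction of smooth muscle and for matrix production by fibroblasts, and binds endothelin 1 with preference over endothelin 3. EDNRB binds all endothelins alike, clears endothelin 1 from the circulation, and guides neural crest cells towards the gut and the skin.

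The libraries held 22782505 to 31278741 counts each. Control mouse 5 had a pair of libraries, labelled 5(1) and 5(2), which were summed, so that 13 libraries gave 12 samples. These 2 libraries differed from each other as much as libraries of different control mice (chi-square of 146 per gene, against 53.2 to 154 for the other pairs). The summed level of 8 fibroblast markers was 10100 to 15600 CPM (counts scaled to a common library size) over the samples, led by Vim in every group. Of the list, the small proteoglycan genes Dcn and Lum were low in control MEFs, higher in senescent MEFs and highest with Fucoidan-FV, as was Ednrb. Unlike that of Ednrb, their means were not higher with the higher dose than with the lower one. The mean of Dcn was 1.06 CPM in control MEFs, 16.2 in senescent MEFs, 81.6 at 100 μg/mL and 75.7 at 300 μg/mL, and that of Lum was 0.061, 0.666, 6.6 and 4.47 CPM. Both rose in senescent against control MEFs and with the lower dose. With the higher dose they did not pass by edgeR, the main method (log2 fold change 2.22 and 2.73), while they did by the alternative DESeq2. Between the doses, their log2 differences were -0.11 (SE 0.57) and -0.56 (SE 0.72). The call of Dcn in senescent MEFs held with each mouse left out (3.64 to 4.33), while those with the lower dose were lost without any senescent or treated mouse (1.24 to 2.72 for Dcn and 3.04 to 3.67 for Lum) and with the mouse as a block (1.94 and 3.26). That of Lum in senescent MEFs was lost without any control mouse, without senescent mouse 4 or 6 (2.81 to 3.79) and with the block (3.06). Of the 8 markers, 6 had a higher and 2 a lower fitted level at 100 μg/mL than in senescent MEFs, and at 300 μg/mL 5 and 3 did. Vim fell from a mean of 7730 CPM in senescent MEFs to 4230 and 4870 CPM, and was not a DEG at either dose. Dcn and Lum are named after their values were seen, and their part in the results below was not tested.

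Ednrb and Ednra had the largest differences among the members, so the sequence around their transcription start sites is shown. Each window runs from 250 bases before to 50 bases after the start given by RefSeq (table on GRCm38.p6), and was located by exact match in GRCm39, on the minus strand, at chr14:104081088-104081387 for Ednrb and chr8:78451032-78451331 for Ednra. The GC content was 58.7% for Ednrb and 54.7% for Ednra. Capitals mark CAGAC, the core element bound by SMAD proteins, on either strand (GTCTG where it lies on the opposite strand).
Ednrb: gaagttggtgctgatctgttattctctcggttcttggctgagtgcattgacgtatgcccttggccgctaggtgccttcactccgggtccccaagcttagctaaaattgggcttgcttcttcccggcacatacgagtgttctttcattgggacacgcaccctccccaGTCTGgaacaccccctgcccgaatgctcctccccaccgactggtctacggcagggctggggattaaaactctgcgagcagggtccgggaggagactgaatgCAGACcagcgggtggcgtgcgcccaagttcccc
Ednra: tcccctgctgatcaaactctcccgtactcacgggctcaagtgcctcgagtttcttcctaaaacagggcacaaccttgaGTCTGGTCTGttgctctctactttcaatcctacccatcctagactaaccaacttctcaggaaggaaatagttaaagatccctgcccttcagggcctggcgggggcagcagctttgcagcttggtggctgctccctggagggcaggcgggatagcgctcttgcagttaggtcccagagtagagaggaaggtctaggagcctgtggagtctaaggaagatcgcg

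Both windows held this element 2 times, in Ednrb at positions -84 and 18 from the start and in Ednra at -172 and -167. CAGAC is short, and 49.5% of 32544 promoter windows of the same length held it. The TATA box (TATAAA, in 13.6% of all windows), the AP-1 element TGANTCA (7.8%), the GC box GGGCGG (35.9%), the GATA element AGATAA (11.2%) and the hypoxia response core ACGTG (19.7%) were searched on both strands, and these letters were not in either window. The Edn1 window, by contrast, held AGATAA and ACGTG 1 time each and CAGAC 2 times. The start used for it lies 210 bases from the nearest annotated transcript start of the gene, against 9 for Ednrb and 12 for Ednra, so the windows are not fully alike. A match of letters is a description of the sequence and not a measured binding site.

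Ednrb (ENSMUSG00000022122, chr14:104052053-104081900, GRCm39, minus strand) was close to absent from control MEFs and was counted in every Fucoidan-FV sample. In control MEFs it had 1, 1 and 0 counts in mice 4, 5 and 6. Untreated senescent MEFs had 4, 7 and 8 counts, or 0.128, 0.302 and 0.272 CPM. All 3 senescent samples were above all 3 controls, but they were in part near the level that 3 counts stand for, which was 0.0589 to 0.141 CPM over the samples.

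With 100 μg/mL Fucoidan-FV the counts of Ednrb were 191, 139 and 164 (5.98, 5.26 and 5.67 CPM), a mean of 5.64 CPM ± 0.359 (SD, n = 3). At 300 μg/mL they were 263, 166 and 144 (10.2, 5.9 and 5.97 CPM), with a mean of 7.36 CPM ± 2.46 (SD, n = 3), and mouse 4 stood above the others. No treated sample overlapped with a senescent or control sample, whereas the doses overlapped with each other. Summed over the mice, the senescent level was 10.8 times the control level, with a 95% counting interval of 2.62 to 96. The treated level was 25 times the senescent level at 100 μg/mL (15.8 to 41.9) and 32.4 times at 300 μg/mL (20.6 to 54.3). These intervals cover counting error alone. The fitted log2 difference from senescent MEFs was 4.58 (SE 0.56) with the lower dose and 4.97 (SE 0.57) with the higher one.

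**Figure D1:**
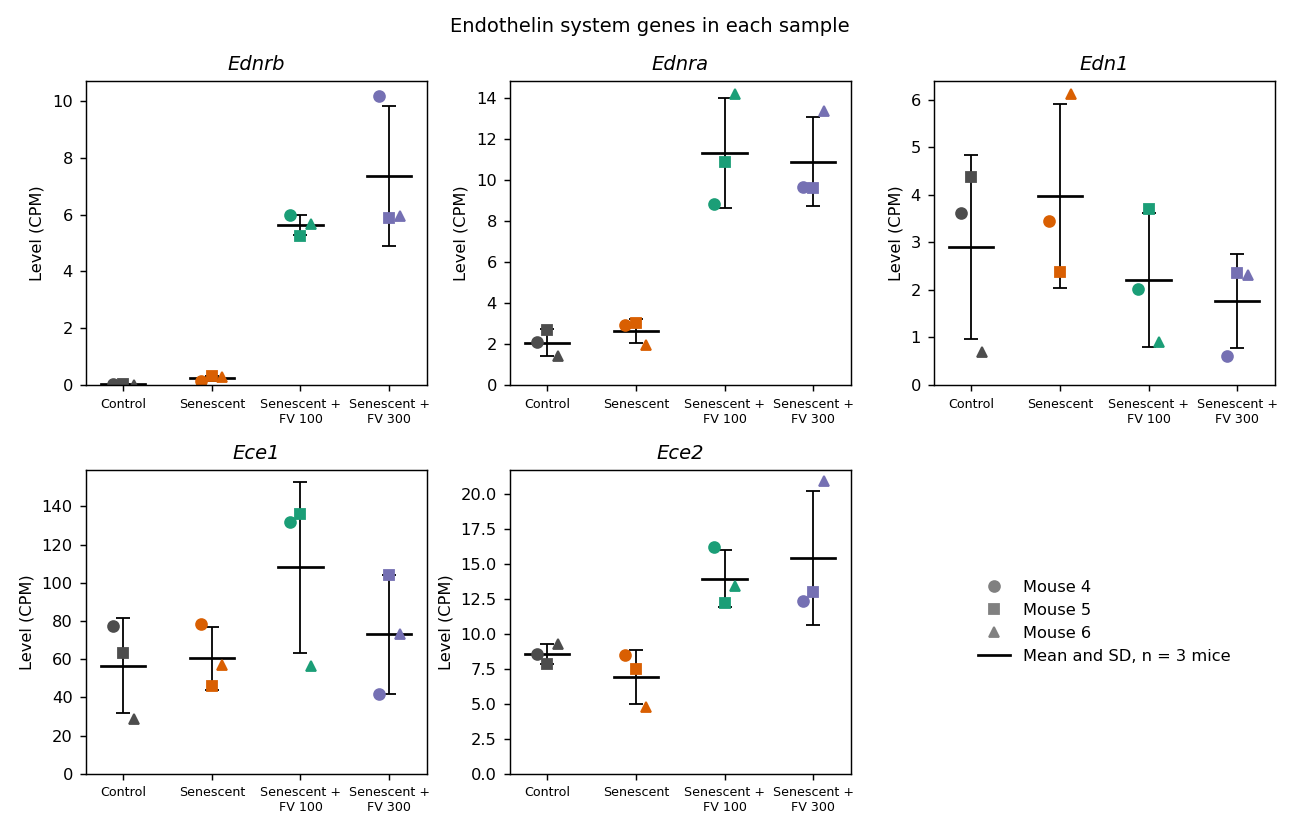
Level of the 5 endothelin system genes in CPM (counts scaled to a common library size, linear axis from 0) in the 4 groups; points are samples of mice 4, 5 and 6, horizontal lines the means and bars the SD. Ednrb is at 0 to 0.302 CPM without Fucoidan-FV and at 5.26 to 10.2 CPM with it, Ednra moves from 1.41 to 3.02 CPM to 8.86 to 14.2 CPM, and all groups of Ece1 overlap.

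Ednra (ENSMUSG00000031616, chr8:78386590-78451552, minus strand) was present in all samples and was also higher with Fucoidan-FV. Control MEFs had 2.08, 2.71 and 1.41 CPM in mice 4, 5 and 6, and senescent MEFs had 2.91, 3.02 and 1.97 CPM. These groups overlapped, and their fitted log2 difference was 0.34 (SE 0.37). The level was 8.86, 10.9 and 14.2 CPM at 100 μg/mL, a mean of 11.3 CPM ± 2.71 (SD, n = 3), and 9.69, 9.6 and 13.4 CPM at 300 μg/mL, a mean of 10.9 CPM ± 2.19 (SD, n = 3). All treated samples were above all others. The log2 difference from senescent MEFs was 2.1 (SE 0.37) at 100 μg/mL and 2.05 (SE 0.37) at 300 μg/mL. At 300 μg/mL it was 1.87 without treated mouse 6, and did not then meet the criteria used for differentially expressed genes (DEGs). In the annotation, 27.2% of the exonic bases of Ednra lie opposite the gene Gm45714, which had 0 to 10 counts per sample. The strand setting of the counting was not given in the sources used here, so the reads of the 2 genes may not be fully separated.

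Per length, the receptors were brought closer together. Ednra was above Ednrb in all control and senescent samples (0.651 against 0.00777 CPM per kilobase on average in control MEFs, 0.834 against 0.062 in senescent MEFs). Ednrb made up 0% to 2.7% of the receptor RNA per length in control MEFs and 3.54% to 10.5% in senescent MEFs. This share was 25.9% to 36.8% at 100 μg/mL (mean 31.6% ± 5.44, SD, n = 3) and 30.4% to 51.4% at 300 μg/mL (mean 38.7% ± 11.2, SD, n = 3). Ednrb passed Ednra in a single sample, mouse 4 at 300 μg/mL.

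**Figure D2:**
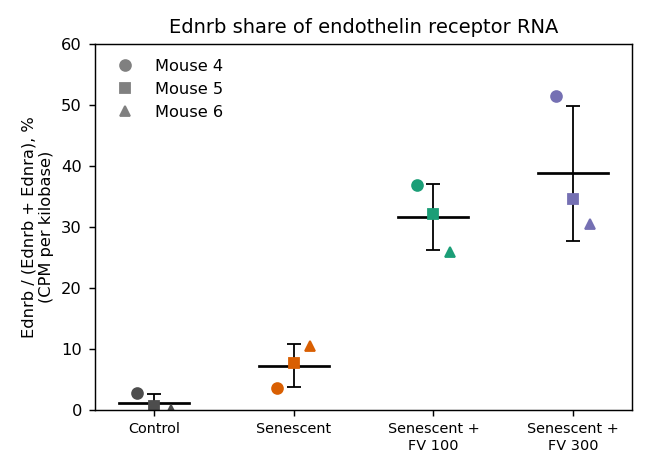
Share of Ednrb in the summed RNA of Ednrb and Ednra, in percent of CPM per kilobase, in each group; points are mice, lines the means and bars the SD (n = 3). The 6 Fucoidan-FV samples sit between 25.9% and 51.4%, above the 10.5% of the highest senescent sample.

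DEGs are genes with an adjusted p under 0.05 (edgeR) and an absolute log2 fold change over 1. In senescent against control MEFs, 8.42% of all tested genes met these criteria. Of the members Ednrb did (fitted log2 fold change 3.22, SE 0.74, which rests on 2 counts in control MEFs), though not without control mouse 5 (3.12). Every control and senescent sample had fewer Ednrb counts than the minimum of 10 set for testing. Ednrb thus entered this and every other comparison only through its level with Fucoidan-FV, and nothing is read from its calls. At 100 μg/mL against senescent MEFs, 2.69% of genes were DEGs and Ednrb and Ednra were among them. At 300 μg/mL the share was 1.64%, with the same 2 members. Against control MEFs, DEGs made up 19.7% of genes with the lower dose and 18% with the higher one, and again Ednrb and Ednra met the criteria. All of these comparisons use the same senescent or control samples. Between the doses 0.00665% of genes (1 gene) and none of the members passed, by edgeR or by DESeq2. The values of 3 members at 100 μg/mL and of 4 at 300 μg/mL did not overlap with senescent MEFs, as was the case for 26.2% and 19.6% of all genes. As the members were picked on these counts, nothing is read from these shares.

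**Figure D3:**
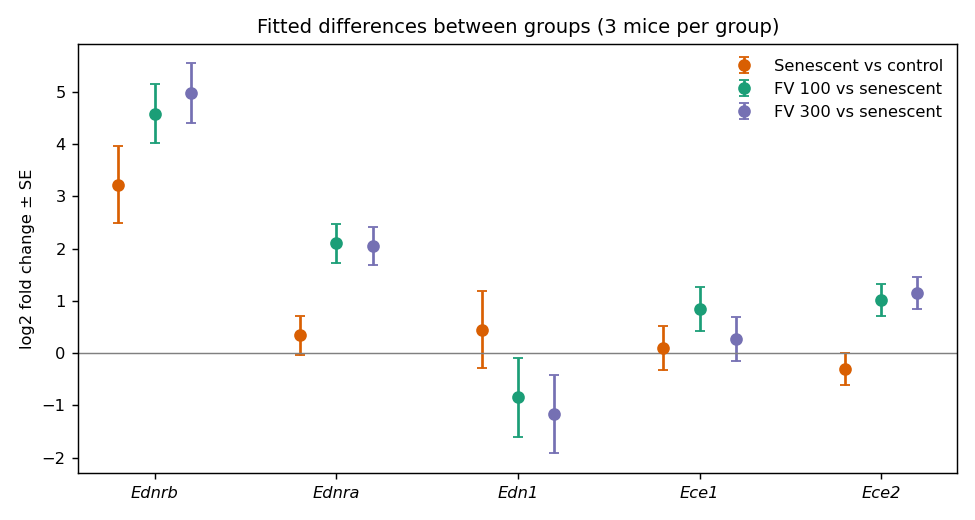
Fitted log2 fold change of each member, with its SE, comparing senescent with control MEFs, and each Fucoidan-FV dose with senescent MEFs (3 mice per group). Ednrb is at 4.58 and 4.97 and Ednra at 2.1 and 2.05 with treatment; Edn1 is at -0.85 and -1.17 with an SE of 0.75 at either dose.

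Edn1 (ENSMUSG00000021367, chr13:42446301-42461466, plus strand), which encodes the precursor of endothelin 1, was low and varied widely among mice. Its level was 3.61, 4.38 and 0.705 CPM in control MEFs and 3.45, 2.37 and 6.12 CPM in senescent MEFs. With Fucoidan-FV it was 2.03, 3.71 and 0.9 CPM at the lower dose and 0.62, 2.35 and 2.32 CPM at the higher one. The groups overlapped, apart from senescent MEFs and 300 μg/mL, for which the lowest senescent value (2.37) lay just above the highest treated one (2.35). The fitted log2 differences from senescent MEFs, -0.85 at 100 μg/mL (SE 0.75) and -1.17 at 300 μg/mL (SE 0.75), were less than 2 times their errors in this fit, though not with the offsets for library differences given below.

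The other ligand genes had few counts or none. Edn2 had 4, 11 and 0 counts in control MEFs and 5, 2 and 12 in senescent MEFs, against 2, 0 and 0 at 100 μg/mL and 1, 1 and 0 at 300 μg/mL, and it was too low to be tested. Edn3, whose product is the ligand of EDNRB in neural crest development, had 0 counts in all samples, which allows a level of up to 0.0589 to 0.141 CPM per sample. Of the ligands, only Edn1 was thus above 1 CPM in any group.

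Ece1 (ENSMUSG00000057530, chr4:137589530-137692542, plus strand) was the most abundant member in every group, at 30.3 to 47 CPM per kilobase on average. Per sample it had 77.4, 63.5 and 28.9 CPM in control MEFs, 78.3, 46.1 and 56.7 CPM in senescent MEFs, 132, 136 and 56.2 CPM at 100 μg/mL, and 41.9, 104 and 73 CPM at 300 μg/mL. All groups overlapped, and its log2 difference from senescent MEFs was 0.84 (SE 0.42) at 100 μg/mL and 0.27 (SE 0.42) at 300 μg/mL.

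Ece2 (ENSMUSG00000022842, chr16:20448332-20465273, plus strand) encodes the converting enzyme that works in acidic vesicles. It had 8.58, 7.81 and 9.26 CPM in control MEFs and 8.47, 7.5 and 4.79 CPM in senescent MEFs. The treated samples had 16.2, 12.2 and 13.4 CPM at 100 μg/mL and 12.3, 13 and 20.9 CPM at 300 μg/mL, all above the samples without Fucoidan-FV. Its log2 difference from senescent MEFs was 1.01 (SE 0.31) at 100 μg/mL and 1.15 (SE 0.31) at 300 μg/mL, and it did not meet the DEG criteria at either dose by edgeR, while it did at both by DESeq2 (1.1 and 1.17). As 54.4% of its exonic bases are shared with the readthrough gene Eef1ece2 on the same strand, the split of reads between the 2 genes is uncertain. Eef1ece2 had 71 to 514 counts per sample, and its highest values fell in a different mouse in each treated group.

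Libraries also differed in a way that the groups do not explain. For each gene, the share of exonic bases that lie in a single listed transcript was taken from the annotation, and for the genes in which it is 100% (Edn1 is one) the median deviation from the mean over the libraries was between -1.32 (control mouse 6) and 0.93 (mouse 5 at 100 μg/mL) on the log2 scale. Edn1 was 3.48 higher (log2) in library 5(2) than in 5(1) of the same control mouse, at 8.6 and 0.703 CPM, where the median of its class of genes was 1.8 higher. Ece1 (87.8% of bases in a single transcript) was 1.67 higher and Ednra (85.3%) 1.66 higher, in a class with a median of 1.16. Ece2 (32.8%) was 0.41 lower and Ednrb (7.7%) 0.55 lower, in classes with medians of -0.2 and -0.18. The part of these library differences in the results on Edn1 and Ece1 was not tested directly. With offsets for them in the fit, the log2 difference from senescent MEFs at 100 μg/mL was 4.68 for Ednrb, 1.74 for Ednra, -1.46 for Edn1, 0.34 for Ece1 and 1.15 for Ece2, and at 300 μg/mL 4.9, 2.02, -1.19, 0.2 and 1.16 in the same order. With these offsets, the difference of Edn1 was over 2 times its error at each dose (SE 0.45 at both) without meeting the DEG criteria, and that of Ece2 at 100 μg/mL met them.

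**Figure D4:**
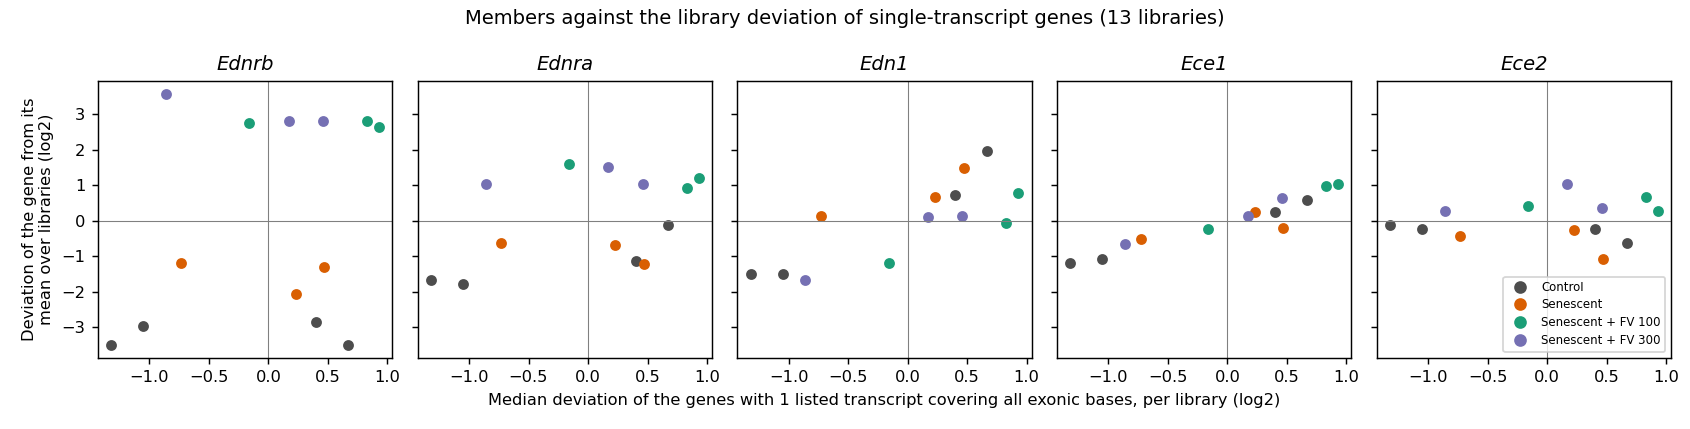
Deviation of each member from its mean over the 13 libraries (log2, vertical axis) against the median deviation of genes whose exonic bases all lie in a single listed transcript (log2, horizontal axis), with libraries coloured by group. Edn1 and Ece1 are higher in libraries further to the right, where the axis spans -1.32 (control mouse 6) to 0.93 (mouse 5, 100 μg/mL), whereas Ednrb separates by treatment along the vertical axis.

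EDNRB is also made by cells other than fibroblasts, so markers of these were read beside it. Of 9 neural crest and melanocyte markers, the pigment enzyme genes Tyr and Tyrp1 were at 0 in all groups, and the summed level was 4.65 to 5.48 CPM in control MEFs, 3.5 to 8.08 in senescent MEFs, 7.09 to 11.1 at 100 μg/mL and 5.85 to 7.72 at 300 μg/mL. Sox10, which marks neural crest and Schwann cells, had a mean of 2.28 CPM in control MEFs, 1.52 in senescent MEFs, 1.59 at 100 μg/mL and 2.26 at 300 μg/mL. For Mitf, the melanocyte transcription factor, it was 1.82, 3.31, 5.61 and 4.05 CPM. Of the 4 tested genes of this list, 4 had a higher fitted level with the lower dose than in senescent MEFs (median log2 difference 0.71) and 3 with the higher dose (0.43). For 8 Schwann cell and astrocyte markers the sum was 2.2 to 5.64, 3.26 to 4.22, 6.3 to 8.36 and 3.98 to 7.18 CPM in the same order. Slc1a3 of this list had a mean of 1.9, 0.593, 3.17 and 2.84 CPM. Of its 5 tested genes, 4 had a higher and 1 a lower fitted level at 100 μg/mL than in senescent MEFs, and at 300 μg/mL 2 and 3 did. Of these 2 lists, 4 and 5 genes were tested, and none was a DEG at either dose against senescent MEFs by edgeR. Among the first, 0 had an unadjusted p under 0.05 and 0 were DEGs by DESeq2, and among the second it was 1 and 1 at each dose. Against control MEFs, Mitf was a DEG at 100 μg/mL (log2 fold change 1.63 in this fit). No other tested gene of the 2 lists was a DEG against control MEFs at either dose by edgeR.

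For 9 endothelial markers the sum was 4.28 to 7.9 CPM in control MEFs, 5.37 to 8.06 in senescent MEFs, 8.67 to 16.3 at 100 μg/mL and 7.67 to 10.5 at 300 μg/mL. Cldn5 was at 0 throughout, and Pecam1 and Cdh5 had means under 0.5 CPM in each group. Tek, the angiopoietin receptor, moved with the receptors, from a mean of 0.481 CPM in senescent MEFs to 5.87 at 100 μg/mL and 4.92 at 300 μg/mL, and was a DEG at the lower dose (log2 fold change 3.58), though the mouse as a block (3.86) or leaving out any senescent or treated mouse of that comparison (3.3 to 4.45) ended this call. Tek was named after its values were seen. Of the 6 tested genes of this list, 4 had a higher and 2 a lower fitted level at each dose than in senescent MEFs. The lower ones were Egfl7, which led the list without Fucoidan-FV, at 4.82 CPM in senescent MEFs against 2.75 and 2.55 CPM, and Kdr, at 0.633 against 0.435 and 0.25 CPM. Neither was a DEG at either dose. The sums of 8 smooth muscle and pericyte markers were lower with Fucoidan-FV (1100 to 1430 CPM, against 1590 to 2260 CPM in senescent MEFs), but 4 of the 8 had a higher and 4 a lower fitted level at each dose. Cnn1, the most abundant of them, fell at both doses, from a mean of 777 CPM to 336 and 335 CPM, calls that were lost without senescent mouse 5 or 6, without treated mouse 4 or 6 at either dose and without treated mouse 5 at 300 μg/mL (log2 fold change -1.36 to -0.78). Of those higher at each dose, Notch3, at 15.7 CPM in senescent MEFs against 72.7 and 50.5 CPM, and Abcc9, at 1.73 against 5.72 and 7.22 CPM, differed most. Myh11 was at 251 against 295 and 330 CPM, and none of these passed at either dose by edgeR. Of the 8 markers, 5 had an unadjusted p under 0.05 by edgeR at 100 μg/mL and 4 at 300 μg/mL. By DESeq2, 3 and 2 of them were DEGs. In senescent against control MEFs, Notch3 (log2 fold change 2.68) and Myh11 (1.43) were DEGs. The sums of 7 macrophage markers were 0.564 to 4.55 CPM in control MEFs, 2.88 to 13 in senescent MEFs, 6.14 to 13.2 at 100 μg/mL and 3.26 to 10.7 at 300 μg/mL, and those of 6 epithelial markers stayed at 0 to 2.04 CPM. The part of other cell types in the level of Ednrb was not tested.

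Around the members, 99 further genes were listed by role, of which 87 were tested. Against senescent MEFs, the lower dose raised 6 of them and lowered 5 (12.6%, against 2.69% of all genes), and the higher dose raised 4 and lowered 6 (11.5%, against 1.64%). The lists were chosen with earlier results known, so nothing is read from these shares. In senescent against control MEFs 1 gene passed (1.15%, against 8.42% of all genes): Plcb1, a phospholipase C that acts below Gq, rose from 7.29 to 18.3 CPM (1.33 on the log2 scale with an SE of 0.36, adjusted p = 0.0296), though not with the mouse as a block (1.31) or when control mouse 4 or 5 or senescent mouse 4 or 5 was left out (1.12 to 1.67 over all left-out mice). Between the doses none passed by edgeR or DESeq2, and none had an unadjusted p under 0.05 by edgeR, which does not show that the doses act alike.

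Among 11 genes of other peptides and peptidases (5 tested), the RNA of Mme, which encodes the endothelin-degrading peptidase neprilysin, rose. The protein and its activity were not measured. Mme had 3.1, 2.41 and 0.544 CPM in the senescent samples, 16.4, 10.8 and 15 CPM at 100 μg/mL, and 18, 9.32 and 9.83 CPM at 300 μg/mL, with no overlap. The log2 fold changes of Mme were 2.8 at the lower dose (adjusted p = 0.0126) and 2.61 at the higher one (adjusted p = 0.0245), each with an SE of 0.53. The call was lost at 100 μg/mL without treated mouse 4, and at 300 μg/mL without senescent mouse 5 or treated mouse 4 or 6 (2.19 to 3.43 over all left-out mice). Pcsk6, a furin-type protease, rose from 42.3 to 96.1 CPM at 300 μg/mL (log2 fold change 1.18, adjusted p = 0.0397), and this call was lost when any mouse of the comparison other than senescent mouse 5 was left out (0.97 to 1.5). Furin itself was lower in senescent than in control MEFs by a log2 difference of -0.71 (SE 0.17, adjusted p = 0.0175), under the fold set for a DEG, and at -0.39 and -0.17 with Fucoidan-FV it did not pass.

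Downstream of the receptors, none of the 24 tested genes for G proteins and calcium effectors was a DEG at either dose by edgeR or DESeq2. As only 2.69% and 1.64% of all genes were DEGs by edgeR, a list of this size can have none by these shares alone, and nothing is read from it. Of the 24 genes, 0 had an unadjusted p under 0.05 by edgeR with the lower dose and 1 with the higher one. Their median log2 fold change was 0.12 at 100 μg/mL and 0.06 at 300 μg/mL, against -0.02 and 0 for all genes. Of 11 genes that end receptor signalling, 2 rose with the lower dose, while with the higher one 1 rose and 1 fell. These were regulators of G protein signalling, which speed up GTP hydrolysis by the G protein. Rgs4 rose from a mean of 52.8 CPM to 149 and 196 CPM (log2 fold change 1.49 and 1.89, adjusted p = 0.0437 and 0.0238). Rgs5 rose at 100 μg/mL, from 4.93 to 47.1 CPM (3.25, adjusted p = 0.0283), and Rgs16 fell at 300 μg/mL, from 46.6 to 5.28 CPM (-3.14, adjusted p = 0.0428). At the other dose Rgs5 (2.68) and Rgs16 (-2.22) did not pass, and the differences between the doses were not DEGs. Each of the 4 calls was lost in some of the fits that left out 1 mouse, that of Rgs16 in all fits that left out a senescent or treated mouse and with the mouse as a block (-3.22).

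Of 17 tested regulators of the Edn1 promoter, Fosl1, a subunit of AP-1, was the only DEG at either dose. It fell from 16.4, 13.9 and 22.4 CPM in senescent MEFs to 2.88, 2.39 and 0.45 CPM at 100 μg/mL, a log2 difference of -3.2 with an SE of 0.56 (adjusted p = 0.00859). At 300 μg/mL it had 0.892, 1.53 and 1.24 CPM, a difference of -3.84 with an SE of 0.58 (adjusted p = 0.00635). The groups did not overlap.

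Of 15 genes known to be induced by endothelin 1 in fibroblasts, 4 fell and 1 rose at either dose, where 2.69% and 1.64% of all genes were DEGs. The list median was -0.78 at 100 μg/mL and -0.72 at 300 μg/mL, against -0.02 and 0 for all genes. The list was chosen with earlier results known, so nothing is read from these counts, and endothelin signalling was not tested. Timp1, an inhibitor of matrix metalloproteases, fell from 1140, 1180 and 2480 CPM in senescent MEFs to 254, 230 and 298 CPM at 100 μg/mL and 325, 244 and 242 CPM at 300 μg/mL (log2 fold change -2.62 and -2.57, SE 0.28 at either dose, adjusted p = 0.00056 and 0.000955). Hbegf, a growth factor of the EGF family, fell from a mean of 88.5 CPM to 20.9 and 19.1 CPM (-2.08 and -2.21, adjusted p = 0.0202 and 0.0237). Tagln, an actin-binding protein of contractile cells, fell from 2370 to 1060 and 974 CPM (-1.16 and -1.28, adjusted p = 0.0384 and 0.0328), and is named outside the rule at the lower dose, where it was not among the 3 largest.

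Col3a1, which encodes a fibrillar collagen and is named here outside the rule as the member of this list that rose, was at 861, 838 and 919 CPM in senescent MEFs, at 1990, 2040 and 2780 CPM at 100 μg/mL and at 1420, 1820 and 2650 CPM at 300 μg/mL (log2 fold change 1.38 and 1.17, adjusted p = 0.0164 and 0.0489). The calls of Timp1 held at both doses with each mouse left out (-2.73 to -2.01), and so did those of Fosl1 (-4.03 to -2.73). Those of Hbegf did not hold without senescent mouse 4, 5 or 6, without mouse 4 at 100 μg/mL or without mouse 4 or 6 at 300 μg/mL (-2.56 to -1.68). Tagln lost its call with the mouse as a block (-1.16 and -1.3), at 100 μg/mL without any mouse of the comparison (-1.33 to -0.62), and at 300 μg/mL without senescent mouse 5 or 6 or any treated mouse (-1.45 to -0.86). Col3a1 lost it at 100 μg/mL without treated mouse 6 (1.21 to 1.55) and at 300 μg/mL without senescent mouse 4, 5 or 6 or treated mouse 5 or 6 (0.89 to 1.36) or with the mouse as a block (1.14).

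**Figure D5:**
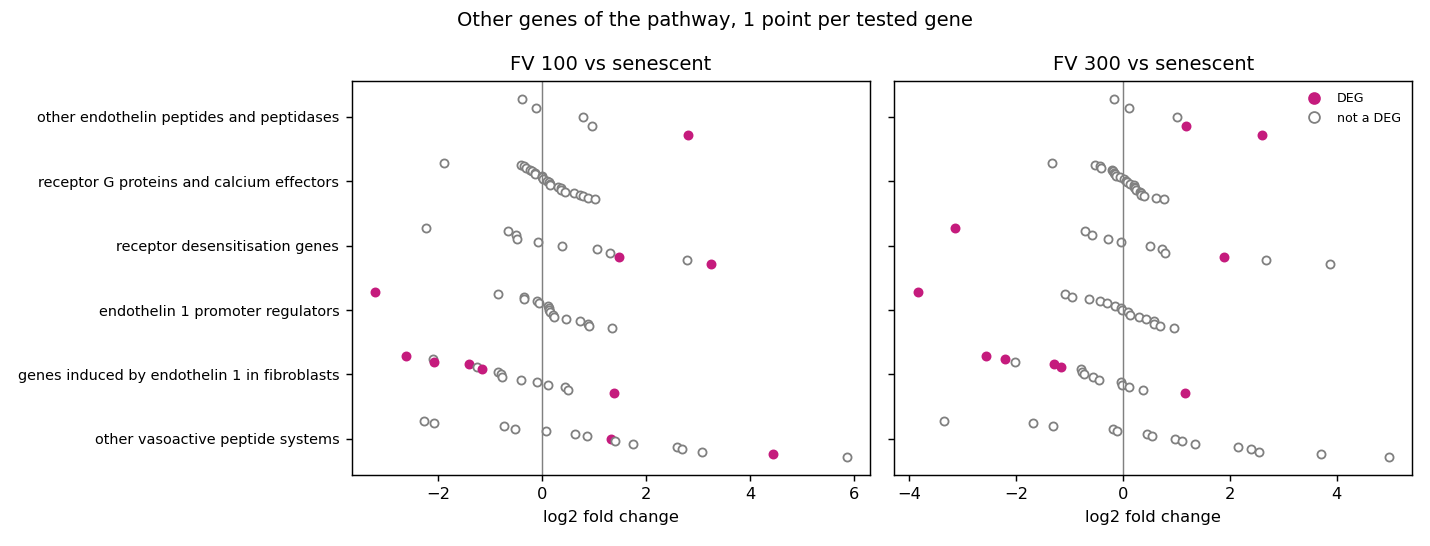
log2 fold change of each tested gene of the 6 lists around the endothelin system, at 100 μg/mL (left) and 300 μg/mL (right) against senescent MEFs, with DEGs filled. The DEGs of the list of endothelin-induced genes lie below 0 apart from Col3a1. The list of G proteins and calcium effectors has none, where 2.69% and 1.64% of all genes are DEGs.

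The 18 genes of other vasoactive peptide systems (15 tested) were read for comparison. At 100 μg/mL 2 of them, Agtr2 and Npr3, met the DEG criteria. Agtr2, an angiotensin II receptor, went from 0.1 to 2.34 CPM (4.45 on the log2 scale with an SE of 1.07). Its counts in mice 4, 5 and 6 were 7, 1 and 1 in senescent MEFs and 1, 0 and 0 in control MEFs. All of these lie under the minimum count set for testing. Agtr2 thus entered the comparison only through its level with Fucoidan-FV, and nothing is read from its call. Npr3, the clearance receptor for natriuretic peptides, rose from 93.5 to 236 CPM (1.33 with an SE of 0.33, adjusted p = 0.043). The calls of Agtr2 and Npr3 were lost with the mouse as a block (4.51 and 1.32) and without any treated mouse. They were also lost without senescent mouse 5 or 6 for Agtr2 (4.09 to 5.92) or 4 or 6 for Npr3 (1.16 to 1.86). At 300 μg/mL neither passed (3.7 and 1.35), and no gene of the list was a DEG by edgeR, while 9 had an unadjusted p under 0.05 and 4 were DEGs by DESeq2. The list had a median of 1.33 with the lower dose and 0.98 with the higher one, against -0.02 and 0 for all genes. It was chosen with earlier results known, so nothing is read from this.

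The genes whose levels were most like those of the members were taken by Pearson's r of log2 CPM over the 12 samples, which share mice and the library differences described above. For Ednrb they were Vipr2 (0.985), a receptor for vasoactive intestinal peptide, Ptgfr (0.974), the prostaglandin F receptor, Nrbp2 (0.973), C1qtnf7 (0.973) and Fbln7 (0.966). For Ednra they were Zfp36l1 (0.977), Ptgfr (0.969), Trerf1 (0.966), Rasgrf2 (0.966) and Adamts1 (0.965), so that Ptgfr stood in both lists. Ece2 was most like Ldb2 (0.946), Col11a1, Mest, Lrp4 and Slc8a1 (0.909). Edn1 was most like Kcnmb1 (0.945), Get3, Cmklr2, Nubpl and Tmem37 (0.927), and Ece1 most like Fhip2b (0.986), Trim44, Tbx15, Dync1h1 and Itpkb (0.981). All 5 of the genes most like Ece1 have at least 85.2% of their exonic bases in a single listed transcript, and those most like Edn1 have 52% to 100%. Among the 15034 tested genes, 2141 have 75% to below 100% and 2081 have 100%. The part of the library differences in these correlations was not tested.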

How the data were processed

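Bulk RNA-Seq of 13 libraries (total RNA, stranded kit) from 4 groups of MEFs was used. The authors aligned the reads to GRCm39 with STAR 2.7.11b, per the submitters' processing notes, and deposited expected counts per gene made with RSEM 1.3.1, without normalization. The TPM values that the authors deposited beside them, scaled by RSEM for length and depth, were used for a check of levels only. RSEM's effective lengths per library gave CPM per kilobase.

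Expected counts were rounded, libraries 5(1) and 5(2) of control mouse 5 were summed, and genes were filtered with filterByExpr (minimum count 10, minimum total 15). Differences were fitted once over the 4 groups with edgeR 4.0.16 (TMM, quasi-likelihood test, R 4.3.3), with Benjamini-Hochberg adjustment over 15034 genes per comparison. CPM values use TMM-scaled library sizes, and correlations use log2 CPM with a prior count of 2. Intervals are exact for summed Ednrb counts at a confidence level of 95%, and floors stand for 3 counts; both cover counting error alone. All 157 listed symbols were matched to GENCODE M39, and 56310 of the 57010 genes were.

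The members and the gene lists were chosen with earlier results of these data known, and the lists were written from general knowledge. Named genes are all members, Edn2, Edn3, Mme and Furin, up to 3 DEGs per list and comparison with the largest absolute log2 fold change and at least 1 CPM on average in the higher group, and the 5 genes most like each member. Of these, 1 gene is counted in its list but not reported here. The labels give the number of the mouse, which pairs samples across groups. Deviations of same-numbered samples from their group means correlated by -0.00627 at the median of 18 pairs (range -0.204 to 0.425, 8 over 0.1), so they do not show this pairing. The study describes 3 independent biological replicates per group.

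As alternatives served DESeq2 1.42.0, normalization by RLE, all genes with a count, a filter of 10 counts in each sample, only the 2 groups compared, either library of control mouse 5 alone, the mouse as a replicate block, adjusted p alone, offsets for single-transcript sequence with and without the block, deposited TPM for levels, and each mouse left out in turn.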

Additional observations from a re-analysis of the deposited data

How the results depend on the processing

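Ednrb met the DEG criteria at either dose against senescent MEFs in all 15 alternatives in which it was tested (log2 fold change 4.46 to 4.95 at 100 μg/mL and 4.66 to 5.22 at 300 μg/mL), and Ednra in 15 and 13 of 16 alternatives. Under the filter used here, Ednrb was tested only through its level with Fucoidan-FV. Both receptors were also chosen on these counts, so nothing is read from how often they passed. In the paired fit (mouse as a replicate block, with Ednra at 2.05 at 300 μg/mL), no call changed for a member. The block ended the calls of Plcb1 (1.31) and Lum (3.06) in senescent against control MEFs, of Dcn (1.94), Lum (3.26), Agtr2 (4.51), Npr3 (1.32), Tagln (-1.16) and Tek (3.86) at 100 μg/mL and of Col3a1 (1.14), Rgs16 (-3.22) and Tagln (-1.3) at 300 μg/mL, and changed no other call among the named genes. With the offsets for single-transcript sequence and the replicate block together, Ednra lost its call at either dose (1.66 and 2), which left 1 member called at each dose, and 6 other pathway genes passed in senescent against control MEFs. Requiring at least 10 counts in every sample removes Ednrb, which left 0 members in senescent against control MEFs and 1 in each comparison with a dose, against senescent or control MEFs. Fitting only the 2 groups compared left 0 members in senescent against control MEFs, where Ednrb was then not tested. At 300 μg/mL against senescent MEFs it left 1 member, Ednrb. Among the other named genes, this fit ended the call of Plcb1 in senescent against control MEFs. At 100 μg/mL it ended those of Fosl1, Hbegf, Mme, Agtr2, Npr3, Rgs4, Dcn, Cnn1 and Tagln. At 300 μg/mL it ended those of Mme, Pcsk6, Rgs4, Rgs16, Col3a1, Cnn1 and Tagln. The same setting gave 5 and 4 other pathway genes at 100 and 300 μg/mL, and library 5(2) alone gave 6 at 100 μg/mL. In senescent against control MEFs, where 1 pathway gene passed, 4 did by DESeq2, 3 with RLE factors, 6 without the filter, 3 with 10 counts in every sample, 5 with library 5(1) alone, 5 by adjusted p alone and 6 with the offsets. The causes were not tested.

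With 1 mouse left out, members called numbered 0 to 1 in senescent against control MEFs (0 without control mouse 5), 2 at 100 μg/mL and 1 to 2 at 300 μg/mL (1 without treated mouse 6). Other pathway genes called numbered 0 to 4, 4 to 8 and 3 to 6 in the same comparisons, against 1, 11 and 10. The lowest values came without control mouse 4, treated mouse 4 at 100 μg/mL and treated mouse 6 at 300 μg/mL.

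Differences that did not pass changed sign in some settings. In senescent against control MEFs, library 5(2) alone gave -0.18 for Ece1 and -0.11 for Edn1, the offsets with the block gave -0.04 for Mme, and leaving out a mouse gave -0.2 to 0.39 for Ece1, -0.31 to 0.64 for Mme, -0.28 to 0.13 for Cnn1 and -0.26 to 1.91 for Tek. Library 5(1) alone gave 0.4 for Edn1 at 100 μg/mL and 0.08 at 300 μg/mL against control MEFs, and left-out mice gave -0.99 to 0.24 at 100 μg/mL. Between the doses, the offsets gave 0.27 for Edn1 and 0.28 for Ednra, and with the block 0.3 and 0.34, while left-out mice gave -0.7 to 0.26 for Edn1, -0.23 to 0.15 for Ednra and -0.13 to 0.29 for Ece2. For Ece1 at 300 μg/mL against senescent MEFs they gave -0.07 to 0.6. Depth limits Ednrb in control and senescent MEFs, at 2 and 19 counts in all.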
